A study of Mus musculus with 4 samples.

Results

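Colony-stimulating factors and their receptors were followed through the tumor cells and the host cells of mouse sarcomas. The family comprised 4 secreted ligands, Csf1, Il34, Csf2 and Csf3, and 4 receptor chains, Csf1r, Csf2ra, Csf2rb and Csf3r. These 8 genes were chosen by symbol from the 18220 genes listed in the deposited tables, and all 8 were found in both the malignant table (17992 genes) and the non-malignant table (16349 genes).

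Colony-stimulating factors are cytokines that drive the survival, growth and maturation of myeloid cells. CSF1 and interleukin-34 share the receptor tyrosine kinase CSF1R, which monocytes, macrophages and osteoclasts depend on. GM-CSF, the product of Csf2, binds a receptor made of a specific alpha chain (Csf2ra) and a beta chain (Csf2rb) that also serves interleukin-3 and interleukin-5. G-CSF, the product of Csf3, binds a receptor (Csf3r) best known from neutrophils. Tumors are a known source of CSF1, and the ligands and receptors of the family are often made by different cells.

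The tumors were hind limb sarcoma allografts on the 129/SvJae background whose genotype includes Trp53flox/flox, conditional alleles of a tumor suppressor gene, in both groups. The vehicle group (PBS) and the digoxin group each held 2 mice. Digoxin, a cardiac glycoside that inhibits the sodium-potassium pump, was dissolved in DMSO, diluted in PBS and given intraperitoneally at 2 mg/kg every 24 h, and the tumors were taken after 4 doses. Dissociated cells were profiled with a droplet kit that reads the 3′ ends of transcripts and counts unique molecular identifiers (UMIs). The promoter or virus that recombined the alleles and the relation of the mice to each other were not given in the sources used here, so every p-value measures only the spread between these 4 samples.

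The malignant table held 3976 to 6269 cells per mouse at a median of 46799 to 57658 UMIs per cell, and the non-malignant table held 3014 to 3344 cells at 15837 to 16671 UMIs. Cell types are given under their deposited names. In the type named Epithelial, the endothelial genes Cdh5 and Pecam1 averaged 888 and 841 UMIs per 1000000 UMIs of a cell (CPM), whereas the epithelial marker Epcam averaged 0.122 CPM. In the type named Microglia, the plasmacytoid dendritic cell marker Siglech averaged 2449 CPM and the microglial marker Tmem119 averaged 1.43 CPM. Vehicle replicate 2 stood apart in the sex-linked genes of its host cells, with Xist at 6.09 CPM against 722 to 817 CPM in the other mice and Ddx3y at 86.0 CPM against 1.72 to 2.14 CPM. Its values are therefore shown singly, and the digoxin comparison was repeated without it. A fit that leaves out a mouse keeps 1 mouse in its group, so no p-value is given for such fits. Calls from these fits are listed but are not read as evidence. Without vehicle replicate 1, the only vehicle mouse is vehicle replicate 2. Treatment then cannot be told apart from this contrast in sex-linked genes. Scrublet marked 1404 of 31611 cells (4.44%) as likely doublets, and they were not removed from the main values. A total of 113 of 31498 cell barcodes occurred in more than 1 library.

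On mouse build GRCm38, the annotation placed Csf1 at chr3:107741048-107760469, Il34 at chr8:110741829-110805924, and the small genes Csf2 at chr11:54247271-54249667 and Csf3 at chr11:98701263-98703629. Among the receptors, Csf2ra lay at chr19:61223957-61228429, Csf2rb at chr15:78325752-78353847 and Csf3r at chr4:126024550-126044440. Each is a protein-coding gene. From the RefSeq promoter table of GRCm38.p6, 2 members are shown: the receptor Csf2ra, which was high in myeloid types, and the ligand Csf1, which was high in malignant cells. The 250 bases before each RefSeq start are printed 5′ to 3′ on the gene's strand to show where they hold the letters GAGGAA, a core recognised by PU.1 (the product of Spi1), with each match in capitals. The windows are chr19:61228419-61228668 for Csf2ra and chr3:107760470-107760719 for Csf1. The RefSeq start of Csf2ra lies inside the gene as annotated above, so the last bases of its window, with all of one match and part of the other, fall within that gene.
Csf2ra: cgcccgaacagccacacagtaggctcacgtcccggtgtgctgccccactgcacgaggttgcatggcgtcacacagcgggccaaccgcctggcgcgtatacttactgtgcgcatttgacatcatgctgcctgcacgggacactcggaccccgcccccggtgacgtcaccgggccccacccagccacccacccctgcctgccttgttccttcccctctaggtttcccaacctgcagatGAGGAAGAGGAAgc
Csf1: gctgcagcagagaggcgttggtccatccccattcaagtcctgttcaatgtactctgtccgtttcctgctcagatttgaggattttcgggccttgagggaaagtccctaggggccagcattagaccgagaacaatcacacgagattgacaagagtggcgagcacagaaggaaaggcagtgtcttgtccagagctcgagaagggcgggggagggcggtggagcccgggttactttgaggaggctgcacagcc
Searched on both strands (GAGGAA and TTCCTC), the window of Csf2ra held 2 matches and that of Csf1 held 0. Of 32851 promoter windows of the same length, 7639 (23.3%) held the letters, so a match is a description of these windows and not evidence of a bound site.

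Levels are the mean CPM per cell in each mouse. As 3′ UMIs count molecules and not transcript length, levels were compared between genes without scaling by length. Values are listed for vehicle replicates 1 and 2 and then digoxin replicates 1 and 2, and means are given ± SD over the 4 mice. The deposited types were clustered from these same cells, so the order of the types is a description and was not tested.

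Csf1, the main growth factor of macrophages, was abundant in the malignant cells and in fibroblasts. Malignant cells held 116, 94.2, 97.5 and 118 CPM (106 ± 12.3, n = 4), and 16582 of 18963 of them had a UMI of the gene. Fibroblasts held 173, 135, 113 and 117 CPM (135 ± 27.4, n = 4). The Neutrophil type, with 5 to 34 cells per mouse, held 76.4, 257, 66.3 and 50.2 CPM from 51 UMIs in all. The ranges of these 3 populations overlapped, so their order was not resolved. The next type, T cell, held 17.7, 5.84, 23.1 and 33.6 CPM, and the malignant mean was 5.30 times its mean with no overlap between the mice. The Epithelial type held 15.5 ± 1.30 CPM, and the Macrophage type, the largest host population, only 9.16 ± 1.43 CPM (n = 4). Osteoclasts were lowest among the types with cells in every mouse, at 2.17 ± 1.53 CPM.

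Il34, the alternative ligand of CSF1R, was highest in the malignant cells, at 21.7, 23.6, 23.8 and 22.1 CPM (22.8 ± 1.02, n = 4). Fibroblasts followed at 18.9, 16.3, 13.5 and 9.29 CPM (14.5 ± 4.10), and the Epithelial type at 16.0, 12.7, 5.13 and 10.1 CPM (11 ± 4.61). Every malignant value lay above every fibroblast value, by 1.58 times on the means, whereas fibroblasts and the Epithelial type overlapped. The type named Microglia held 7.32 ± 3.81 CPM and the Macrophage type 1.37 ± 0.355 CPM. No UMI of Il34 was found in 63 Dendritic or 41 B cells. Within malignant cells the ratio of Csf1 to Il34 was 5.34, 4.0, 4.10 and 5.34 in the 4 mice, and in fibroblasts it averaged 9.63 ± 2.05.

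**Figure D1:**
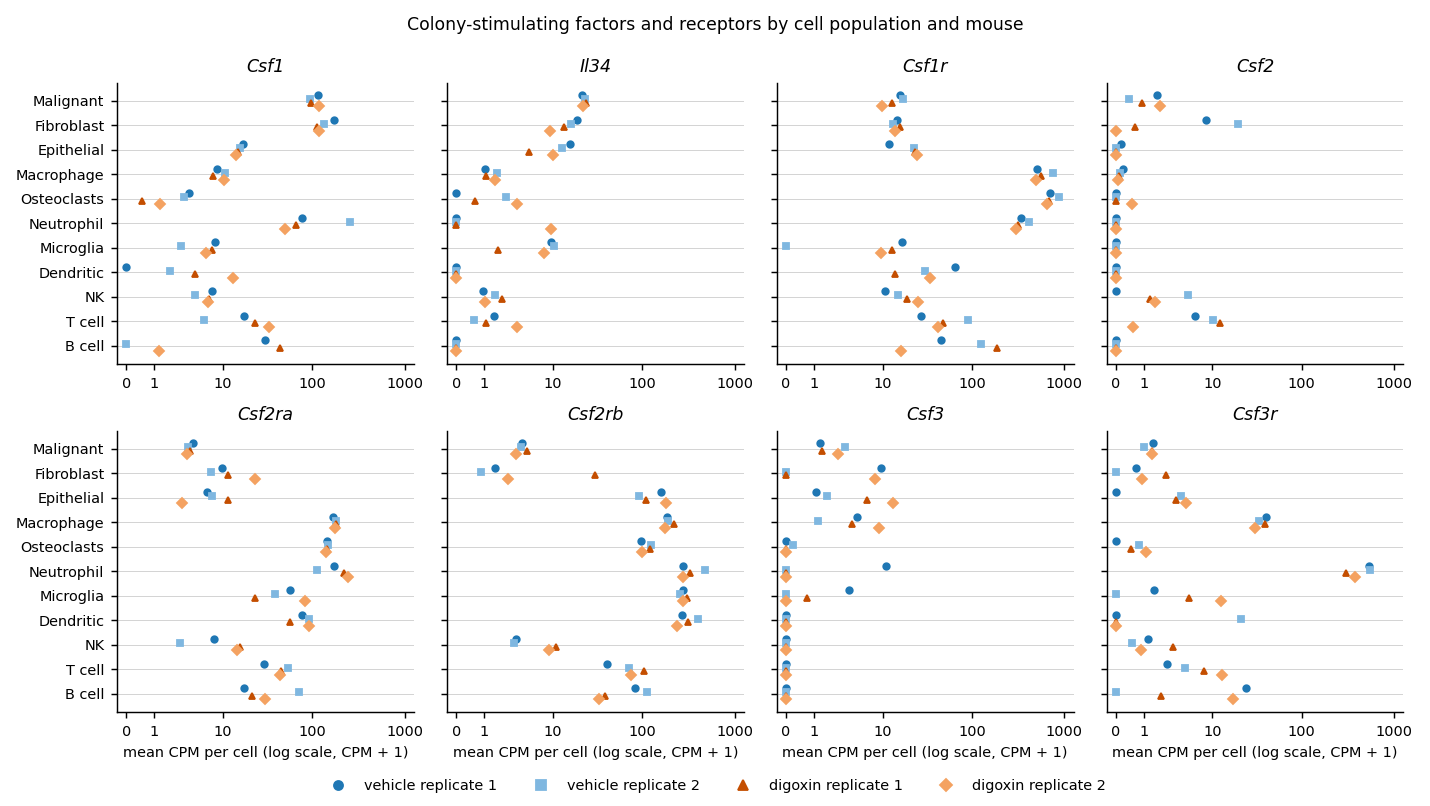
Mean CPM per cell of the 8 genes in malignant cells and each deposited host type, on a log scale of CPM + 1, with 1 point per mouse. Csf1 sits near 100 CPM in malignant cells and fibroblasts, Csf1r is highest in osteoclasts and macrophages, and Csf3r reaches 299 to 543 CPM in the Neutrophil type.

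Csf2 and Csf3, cytokines that many cells make only on activation, were scarce and came from few cells. The T cell type held 6.21, 10.1, 12.4 and 0.541 CPM of Csf2 (7.30 ± 5.18, n = 4), which rested on 45 UMIs in 16 of 579 cells. Fibroblasts held 8.41, 19.7, 0.605 and 0 CPM (7.18 ± 9.18), from 39 UMIs in 5 of 203 cells, so the order of these types was not resolved. Within the T cell type the Th sub-cluster, the helper T cells, contributed 34 of the 45 UMIs from 11 cells, at 11.7, 58.5, 36.1 and 0 CPM. The mice thus ranged from no UMI to the highest level of the gene in any population. Malignant cells held 1.76, 0.386, 0.899 and 1.99 CPM of Csf2, and 412 of 18963 cells had a UMI. The 190 malignant cells with the most Csf2, 1% of the total, carried 86.9% of its 1928 malignant UMIs, and a single cell held up to 67. NK cells held 1.99 ± 2.12 CPM from 10 UMIs, and macrophages 0.111 ± 0.0706 CPM.

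Csf3 showed the same concentration in few cells. The Epithelial type held 1.13, 1.80, 6.56 and 13.4 CPM, from 73 UMIs in 14 of 347 cells. The Macrophage type held 4.88, 1.23, 4.21 and 9.12 CPM (4.86 ± 3.25, n = 4), from 944 UMIs in 234 of 10363 cells, and the highest 1% of cells carried 83.9% of them. Fibroblasts held 9.54, 0, 0 and 8.16 CPM (4.42 ± 5.14), from 42 UMIs in 6 of 203 cells, and the Neutrophil type had UMIs in vehicle replicate 1 alone, at 11.1 CPM. Malignant cells held 1.31, 3.29, 1.44 and 2.65 CPM (2.17 ± 0.957), with 76.1% of the UMIs in the highest 1% of cells and up to 101 in a single cell. The ranges of these populations overlapped. No Csf3 UMI was found in 579 T cells, 504 NK cells, 63 Dendritic or 41 B cells.

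Csf1r, the receptor for CSF1 and interleukin-34, was highest in osteoclasts, macrophage relatives that resorb bone, at 702, 881, 689.5 and 653 CPM (731 ± 101.7, n = 4). The Macrophage type held 512, 755, 567 and 491 CPM (581 ± 120), and all 4 mice had more in osteoclasts than in macrophages, at a mean of 127% of the macrophage level. The Neutrophil type held 344, 414, 313 and 299.5 CPM (343 ± 51.2), 59.6% of the macrophage level, beside 65.7% for the sum of 6 macrophage markers (Adgre1, Cd68, C1qa, C1qb, Mrc1 and Lyz2). Vehicle replicate 2 was the highest mouse in each of these 3 types. Other populations were lower. The B cell type followed at 93.1 ± 76.7 CPM (16.3 to 186), from 75 UMIs in 41 cells, at 15.4% of the macrophage level beside 15.6% for the markers. Means were lower in the rest, with 52.1 CPM in T cells, 36.4 CPM in the Dendritic type, 20.9 CPM in the Epithelial type, 17.6 CPM in NK cells, 14.5 CPM in fibroblasts and 14.0 CPM in malignant cells. The T cell mean fell to 7.0 CPM when cells with UMIs of at least 3 of these markers were left out.

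Cells were thinned to 5000 UMIs each, so that the share of cells with a UMI could be compared across depths. Cells with fewer UMIs than this were left out, so each thinned share describes the deeper cells of its type. A Csf1r UMI was then found in 87.3% of macrophages (97.8% without thinning, median depth 16412 UMIs) and 95.3% of osteoclasts. NK cells and T cells, types that should lack the gene, gave 6.08% (median depth 11690.5 UMIs) and 12.9% (median depth 7765 UMIs). Malignant cells gave 4.74% (18.8% without thinning, median depth 52867 UMIs), which was below both types, so no expression is read from it. For Csf1 the thinned shares were 36.8% of malignant cells, 44.4% of fibroblasts and 4.02% of macrophages, and the depth-limited share for Il34 in malignant cells was 10.7% (58.9% without thinning).

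Csf2ra, the GM-CSF-specific chain, was spread more evenly over the myeloid types. The Neutrophil type held 174, 113, 222 and 245 CPM (188 ± 58.1, n = 4), macrophages 166, 182, 179 and 176 CPM (176 ± 7.05), and osteoclasts 145, 148, 144 and 140.1 CPM (144 ± 3.12). Neutrophils overlapped macrophages, whereas every osteoclast value was below every macrophage value. The Dendritic type averaged 79.4 ± 16.8 CPM, the type named Microglia 50.4 ± 25.8 CPM, and malignant cells 3.79 ± 0.286 CPM.

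Csf2rb, the shared beta chain, had a wider distribution than its partner. The Neutrophil type held 280.4, 483, 329 and 278 CPM (343 ± 96.7, n = 4) and the Dendritic type 269.6, 408, 314 and 239 CPM (308 ± 73.7). The type named Microglia held 277, 255, 308 and 276 CPM (279 ± 21.8), above every macrophage value of 189, 189, 219 and 179 CPM (194 ± 17.5). The endothelial-marked Epithelial type held 162, 93.2, 109 and 183 CPM (137 ± 42.4), with a UMI in 217 of 347 cells, although its Csf2ra level was only 7.04 ± 3.49 CPM. The ratio of Csf2rb to Csf2ra was 1.10 ± 0.0970 in macrophages and 0.766 ± 0.0863 in osteoclasts, and it ranged from 9.52 to 61.4 in the Epithelial type. In malignant cells and fibroblasts the gene was at 4.07 ± 0.591 and 8.97 ± 14.5 CPM, the latter mainly from digoxin replicate 1 at 30.7 CPM.

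A close copy, Csf2rb2, encodes a mouse beta chain specific to interleukin-3 and lies 20030 bases from Csf2rb at chr15:78282507-78305721. Because the copies are alike, reads of this pair are uncertain where the counting could not tell them apart. The ratio of Csf2rb to Csf2rb2 was 4.50 ± 0.559 in macrophages and 4.90 ± 1.19 in osteoclasts. It was 0.970, 0.881, 1.02 and 0.871 in the type named Microglia, where Csf2rb2 reached 299 ± 14.2 CPM, and 1.84 ± 0.508 in the Epithelial type. The copies were thus near parity in the type named Microglia and apart in the other types given here.

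Csf3r, the G-CSF receptor, marked the Neutrophil type, at 535, 543, 299 and 380.1 CPM (439 ± 120, n = 4), with a UMI in 66 of 73 cells. Macrophages held 40.8, 34.1, 39.9 and 30.4 CPM (36.3 ± 4.93), and within each mouse neutrophils had 750.3% to 1592% of the macrophage level. Osteoclasts, the highest type for Csf1r, held 0, 0.782, 0.442 and 1.11 CPM of Csf3r from 7 UMIs. Malignant cells held 1.35 ± 0.227 CPM.

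The deposited macrophage sub-clusters M1 (4280 cells), M2 (4786 cells) and Highly proliferative M2 (1297 cells) divided the receptors. Csf1r was highest in M2, at 664, 902, 804 and 659 CPM, against 411, 503, 383 and 347 CPM in M1, a ratio of 1.85 ± 0.203 that was above 1 in 4 of 4 mice. Highly proliferative M2 held 424, 575, 473 and 405.5 CPM, 0.620 ± 0.0236 of the M2 level. The GM-CSF chains ran the other way. Csf2ra in M1 was 221, 237, 232 and 228 CPM, and M2 held 0.583 ± 0.0636 of that level. Csf2rb in M1 was 256, 295, 301 and 266 CPM, and M2 and Highly proliferative M2 held 0.485 ± 0.0407 and 0.466 ± 0.0334 of it. Csf3r was 45.0 ± 3.72 CPM in M1 and 13.4 ± 3.13 CPM in Highly proliferative M2, a ratio of 0.297 ± 0.0567. For these receptor contrasts every mouse lay on the same side of 1. Among the ligands, Csf1 was between 6.43 and 12.1 CPM in all 3 sub-clusters. Csf3 in Highly proliferative M2 was at 0.222 ± 0.0832 of its M1 level, below 1 in all 4 mice.

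**Figure D2:**
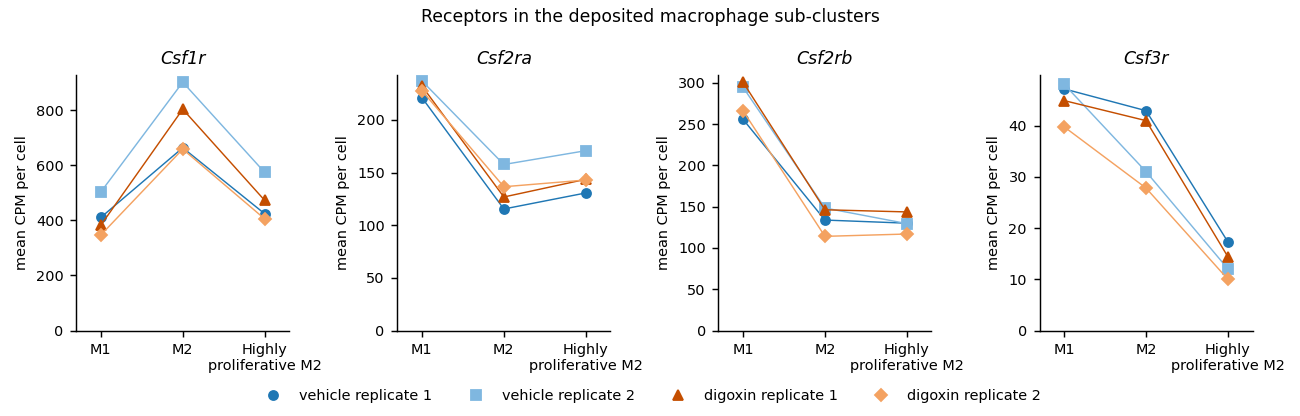
Mean CPM per cell of the 4 receptors in the 3 deposited macrophage sub-clusters, with 1 line per mouse and linear axes from 0. In all 4 mice Csf1r peaks in M2, Csf2ra and Csf2rb are highest in M1, and Csf3r is lowest in Highly proliferative M2.

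Where the RNA of each gene was counted also depended on how many cells of each kind were captured and how deeply. Malignant cells held 97.5%, 98.4%, 97.9% and 97.7% of the Csf1 UMIs of the 4 mice and 98.4 ± 0.364% of the Il34 UMIs. They held 94.5%, 81.1%, 94.9% and 98.7% of the Csf2 UMIs and 60.7%, 92.3%, 59.5% and 49.8% of the Csf3 UMIs. For the receptors the share was small, with means of 13.2 ± 4.02% for Csf1r, 11.96 ± 2.84% for Csf2ra, 11.4 ± 3.07% for Csf2rb and 17.3 ± 3.76% for Csf3r. Csf1, Il34 and Csf2 were thus counted mainly in the malignant compartment and the receptors mainly in the host compartment. Of all UMIs, malignant cells held 84.8%, 87.0%, 82.4% and 81.1%. Csf1 and Il34 lay above this share in every mouse and the receptors below it, whereas Csf2 lay below it in vehicle replicate 2. Per cell, Csf2 averaged 1.26 CPM in malignant cells and 7.30 CPM in T cells, with overlapping ranges. Csf3 was divided, and without malignant cells that had UMIs of at least 3 macrophage markers its malignant share was 34.0%, 86.2%, 39.8% and 29.4%. That of Csf2 was then 79.7%, 42.7%, 82.0% and 91.2%. The filter removed malignant cells only, so lower shares follow by construction.

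Of the host UMIs, macrophages held a mean of 94.1% for Csf1r, 93.5% for Csf2ra, 89.0% for Csf2rb and 93.0% for Csf3r. Neutrophils, although highest per cell, held 4.71% of the host Csf3r UMIs. Macrophages and fibroblasts held 53.8% and 32.9% of the host Csf1 UMIs, and T cells held 35.8% of those of Csf2.

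**Figure D3:**
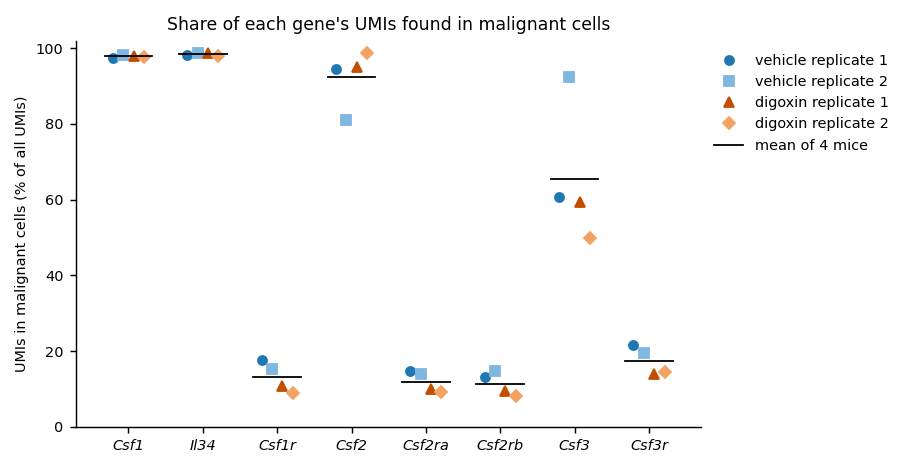
Percent of the UMIs of each gene, over all cells of a mouse, that lay in malignant cells, with 1 point per mouse and a bar at the mean. Csf1 and Il34 lie above 97% in every mouse, the receptors between 8.20% and 21.6%, and Csf3 spans 49.8% to 92.3%.

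For each of the 4 receptors both digoxin mice had a smaller share in malignant cells than either vehicle mouse, which held for 72.2% of 14445 genes. The share of all UMIs in malignant cells was likewise 84.8% and 87.0% with vehicle and 82.4% and 81.1% with digoxin. For Csf1r it was 17.8% and 15.3% with vehicle and 10.7% and 9.04% with digoxin, a difference of -6.63 percentage points. The differences for Csf2ra, Csf2rb and Csf3r were -4.86, -5.09 and -6.32 points. Without cells marked as doublets the Csf1r shares were 7.09% and 3.61% with vehicle and 3.25% and 2.81% with digoxin, and the groups overlapped for Csf3r (11.9% and 8.94% against 9.68% and 8.82%). Without malignant cells with macrophage markers they overlapped for Csf2rb (0.776% and 1.36% against 1.03% and 1.27%) and for Csf3r (3.11% and 3.12% against 4.66% and 2.80%). For the main shares a two-sided exact permutation test gave p = 0.33 for each receptor, the smallest value that 2 against 2 mice allow. In malignant cells the 6 macrophage markers, all of them detected, summed to 531 and 547 CPM with vehicle and 406 and 423 CPM with digoxin, and Scrublet marked 8.43% and 7.32% against 6.10% and 5.63% of the cells. Their part in the lower shares was not tested.

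In malignant cells 3 of the 4 receptors stood at nearly the same small fraction of the macrophage level as the summed macrophage markers did. Csf1r was at 2.43%, Csf2ra at 2.16% and Csf2rb at 2.09% of the level in the Macrophage type of the same mouse, and the marker sum was at 1.88% to 2.82%. Csf3r was higher, at 3.75% (2.96% to 4.76%), above the whole range of the marker sum. It was not above every single marker, since Cd68 stood at 5.48% (4.37% to 6.73%). The means of Adgre1, C1qa, C1qb, Mrc1 and Lyz2 were lower, at 1.95% to 2.57%. Cells marked as doublets, a small part of the malignant cells, carried 72.6% of the malignant Csf1r UMIs, 65.1% of Csf2ra and 70.7% of Csf2rb, but 8.28% of Csf1 and 7.20% of Il34. Without these cells the malignant Csf1r level was 4.81 CPM. The malignant share of Csf3r UMIs was then 11.9%, 8.94%, 9.68% and 8.82%, against 21.6%, 19.4%, 13.9% and 14.4% with them. The source of the remaining Csf3r UMIs was not tested.

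In the Epithelial type Csf1r was at 3.66% of the macrophage level and the markers at 1.92% to 4.70%, whereas Csf2rb was at 71.7%. In the type named Microglia Csf1r was at 1.88% and Csf2rb at 144%, beside a marker sum of 4.92% on average. Osteoclasts had Csf1r at 127% and Csf2ra at 82.2% with markers at 7.24%. In these 3 types at least 1 receptor thus lay above the summed level of the macrophage markers. The same held in T cells, where Csf1r was at 8.60% beside 7.87% for the markers, Csf2ra at 24.4% and Csf2rb at 37.4%. It also held for Csf2rb in the Dendritic type (159% beside 4.33%) and for Csf3r in the Neutrophil type (1226% beside 65.7%). The markers did not move as one, since Cd68 alone was at 209% in osteoclasts and 68.5% in the type named Microglia. Without cells marked as doublets, the Csf1r level was 13.3 CPM in the Epithelial type, 4.23 CPM in the type named Microglia and 7.87 CPM in NK cells.

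**Figure D4:**
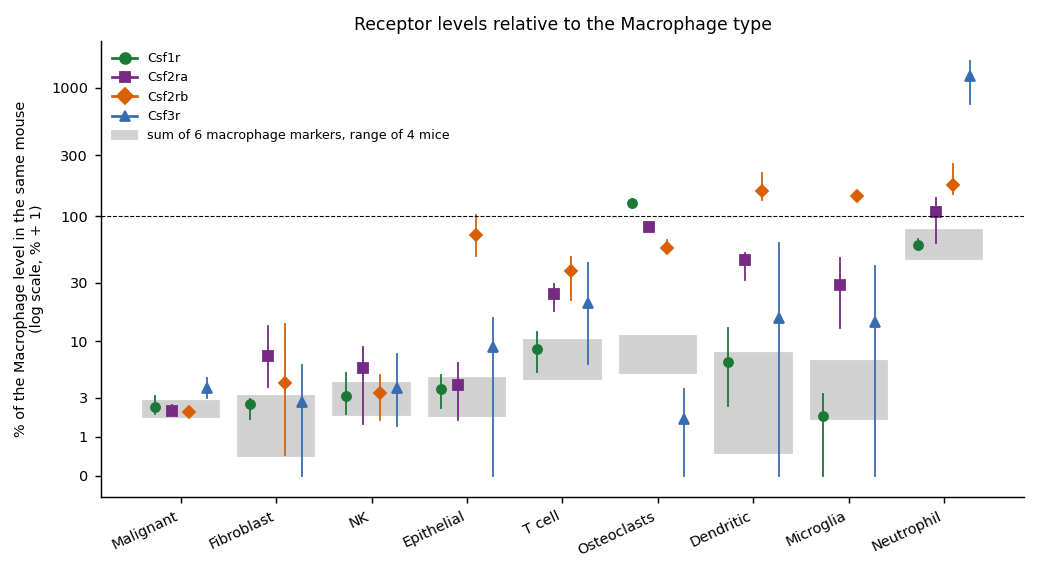
Level of each receptor as a percent of its level in the Macrophage type of the same mouse, on a log scale of percent + 1, with points at the mean and lines over the range of 4 mice. Grey boxes show the range for the sum of 6 macrophage markers, and in malignant cells Csf1r, Csf2ra and Csf2rb fall within or next to the box, at 2.09% to 2.43%.

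Detection of ligand and receptor in the same cell was counted at 5000 UMIs per cell, with shallower cells left out. Among malignant cells 4.12% had both Csf1 and Il34, 32.7% had Csf1 alone and 6.57% had Il34 alone. Both Csf1 and Csf1r were found in 1.71% of malignant cells. Most of the malignant Csf1r UMIs lay in cells marked as doublets, so no joint expression is read from this share. Among macrophages 46.1% had both Csf1r and Csf2ra, and 30.7% had both GM-CSF receptor chains.

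Across malignant cells and the 11 deposited types, 12 populations in all that share libraries and differ in depth, each gene was set beside the 16121 genes common to both tables. The type named Unknown, 30 cells of vehicle replicate 2 alone, was among them. Csf1r was most alike to Trem2, a lipid receptor of macrophages (Pearson's r = 0.987 on log2(mean CPM + 1)), and Csf2ra to Spi1, the gene of PU.1 (r = 0.970). Csf3r was most alike to Ifitm6 (r = 0.977), Csf1 to F3, the gene of tissue factor (r = 0.939), Il34 to Gm5608 (r = 0.959), Csf2rb to Lipe (r = 0.944), Csf3 to Nhsl2 (r = 0.932) and Csf2 to Gm16001 (r = 0.972). Between receptors r ranged from 0.516 (Csf1r and Csf3r) to 0.825 (Csf1r and Csf2ra), and it was 0.822 for the GM-CSF chains Csf2ra and Csf2rb. Between ligands it ranged from 0.0017 (Csf2 and Csf3) to 0.603 (Il34 and Csf3), with 0.551 for Csf1 and Il34. With 12 points these correlations are descriptions.

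Digoxin was compared with vehicle by limma on log2(mean CPM + 1), with Benjamini-Hochberg adjustment over all genes tested. None of the members passed an adjusted p of 0.05 in malignant cells, in all non-malignant cells, in any of the 7 types or in the 3 macrophage sub-clusters tested, and 9 of the 70 member tests had an unadjusted p under 0.05. These were 3 of 4 in NK cells (6.28% of all genes), 3 of 6 in T cells (4.28%), 2 of 7 in M1 (7.73%) and 1 of 8 in malignant cells (3.41%), and none in the other 8 populations, where 2.28% to 6.38% of all genes had one. After adjustment the share of all genes called was 0.467% in the Epithelial type, 0.0765% in NK cells, 0.0128% in osteoclasts and 0% in the other populations. None of the members passed the test of a difference in digoxin effect between malignant and non-malignant cells, where 0% of 14445 genes were called. Without vehicle replicate 1, limma called 1 member there, Csf3 (log2 difference 2.17), and 1.47% of all genes. That fit holds 1 vehicle mouse, so the call is not read as evidence.

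In malignant cells each of the 4 ligand differences was smaller than its SE. On the log2 scale Csf1 differed by 0.04 (SE 0.137), Il34 by 0.02 (SE 0.0892), Csf2 by 0.28 (SE 0.366) and Csf3 by -0.08 (SE 0.33). Csf1r was the only member whose groups did not overlap, 1 of 8 against 29.3% of all genes. Its level was 16.1 and 17.0 CPM with vehicle and 12.9 and 9.94 CPM with digoxin. On the log2 scale this was -0.51 with an SE of 0.139, and the limma adjusted p was 1.00. Without digoxin replicate 2 it was -0.33. DESeq2 on the summed UMIs gave -0.58 and an adjusted p of 0.0397, and called 0.257% of all genes. Without cells marked as doublets the difference was -0.46. Without the malignant cells that had UMIs of at least 3 macrophage markers, 51.2% of the total, the difference was 0.06. That filter removed 49.7% and 48.1% of the vehicle cells and 49.8% and 59.3% of the digoxin cells. The malignant share of Csf1r UMIs was then 1.18% and 1.35% with vehicle and 1.05% and 0.786% with digoxin. With so few UMIs left, the sign of the difference is not read.

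In all non-malignant cells 1 of 8 members, Csf2, had groups that did not overlap (lower with digoxin), against 33.0% of all genes. In the Macrophage type 0 of 7 did, against 30.9%. Macrophage Csf1r differed by -0.24 (SE 0.192), and the difference was 0.04 without vehicle replicate 2, which held the highest level. Macrophage Csf2ra and Csf2rb differed by 0.03 (SE 0.104) and 0.07 (SE 0.126), and Csf3 by 1.00 (SE 0.493). None of these exceeded the spread between mice by the limma test.

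In M1, 3 of 7 members did not overlap, against 39.3% of all genes. Csf3 was at 3.95 and 2.05 CPM with vehicle and 6.45 and 7.76 CPM with digoxin. The log2 difference was 1.06 with an SE of 0.263, and limma gave an adjusted p of 0.483. Without vehicle replicate 1 the difference was 1.41, and limma called Csf3 beside 1.77% of all genes. None of the other settings called Csf3 in M1. The Csf3 difference was 0.71 without vehicle replicate 2, and 1.01 by edgeR and by DESeq2 on summed UMIs. Csf1r in M1 was at 411 and 503 CPM against 383 and 347 CPM, a difference of -0.32 (limma adjusted p = 0.615), and Csf3r was also lower. In M2 and in Highly proliferative M2, 0 of 7 members were without overlap, against 26.6% and 30.1% of all genes.

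Among lymphoid types, the NK cells had 3 of 4 members without overlap, all higher with digoxin, against 36.0% of all genes. Csf2ra was at 7.78 and 2.75 CPM with vehicle and 15.9 and 14.7 CPM with digoxin. The difference of 1.51 on the log2 scale had an SE of 0.459 and a limma adjusted p of 0.656. Without vehicle replicate 1 the difference was 2.12, and limma called Csf2ra beside 1.48% of all genes. Without vehicle replicate 2 the difference was 0.89, and edgeR on summed UMIs gave 0.99. Csf2rb was at 3.38 and 3.24 CPM against 11.1 and 8.99 CPM (difference 1.35), and Csf1r at 10.8 and 15.0 CPM against 19.2 and 25.5 CPM (difference 0.75). Without cells marked as doublets the mean levels over the 4 mice went from 10.3 to 6.42 CPM for Csf2ra, from 6.67 to 2.23 CPM for Csf2rb and from 17.6 to 7.87 CPM for Csf1r, while the Csf2ra difference was 1.38. The 6 macrophage markers, all of them detected in NK cells, summed to 525 and 542 CPM with vehicle and 601 and 953 CPM with digoxin. Their part in these differences was not tested.

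The T cell type had 3 of 6 members without overlap, all higher with digoxin, against 33.3% of all genes. Csf1 was at 17.7 and 5.84 CPM with vehicle and 23.1 and 33.6 CPM with digoxin, from 93 UMIs in all. The log2 difference was 1.35 with an SE of 0.460, and limma gave an adjusted p of 0.979. The difference was 2.08 without vehicle replicate 1, which leaves vehicle replicate 2, the lowest mouse, as the only vehicle mouse. Without vehicle replicate 2 the difference was 0.62. On summed UMIs the difference was 0.51 by edgeR, 0.56 by DESeq2 and 0.57 by limma on their CPM. Csf2rb was at 40.9 and 72.2 CPM against 105 and 75.3 CPM, a log2 difference of 0.70 with a limma adjusted p of 0.979. Without vehicle replicate 2 it was 1.10, and without vehicle replicate 1 it was 0.30. Csf3r was at 2.56 and 4.59 CPM against 7.98 and 13.0 CPM. The marker sum in T cells was 869 and 2839 CPM with vehicle and 1621 and 1881 CPM with digoxin, and its part was not tested. The mix of T cell sub-clusters also differed between the mice. Treg, the regulatory T cells, were 35 of 183 and 65 of 110 T cells with vehicle and 40 of 155 and 35 of 131 with digoxin. Th cells numbered 58 and 19 with vehicle and 51 and 39 with digoxin. The part of this mix in the differences was not tested.

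In the Epithelial type 3 of 5 members did not overlap, against 34.1% of all genes: Csf1 and Il34 were lower and Csf1r higher with digoxin. The 6 macrophage markers, all of them detected, summed there to 361 and 736 CPM with vehicle and 900 and 1060 CPM with digoxin, and their part was not tested. The Il34 values were 16.0 and 12.7 CPM with vehicle and 5.13 and 10.1 CPM with digoxin (log2 difference -0.89, SE 0.423, limma adjusted p = 0.875). Fibroblasts likewise had 3 of 5 without overlap, against 29.5%, with Csf1 and Il34 lower and Csf2ra higher. Their marker sum, from 6 detected markers, was 380.1 and 115 CPM with vehicle and 612 and 558 CPM with digoxin, and its part was not tested. Fibroblast Csf1 was at 173 and 135 CPM against 113 and 117 CPM (log2 difference -0.41, SE 0.225, limma adjusted p = 0.999). Osteoclasts had 2 of 3, Csf1r and Csf2ra, both lower, against 37.4%, and the type named Microglia had 0 of 3, against 32.9%. The osteoclast log2 differences were -0.23 (SE 0.139) and -0.04 (SE 0.147).

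**Figure D5:**
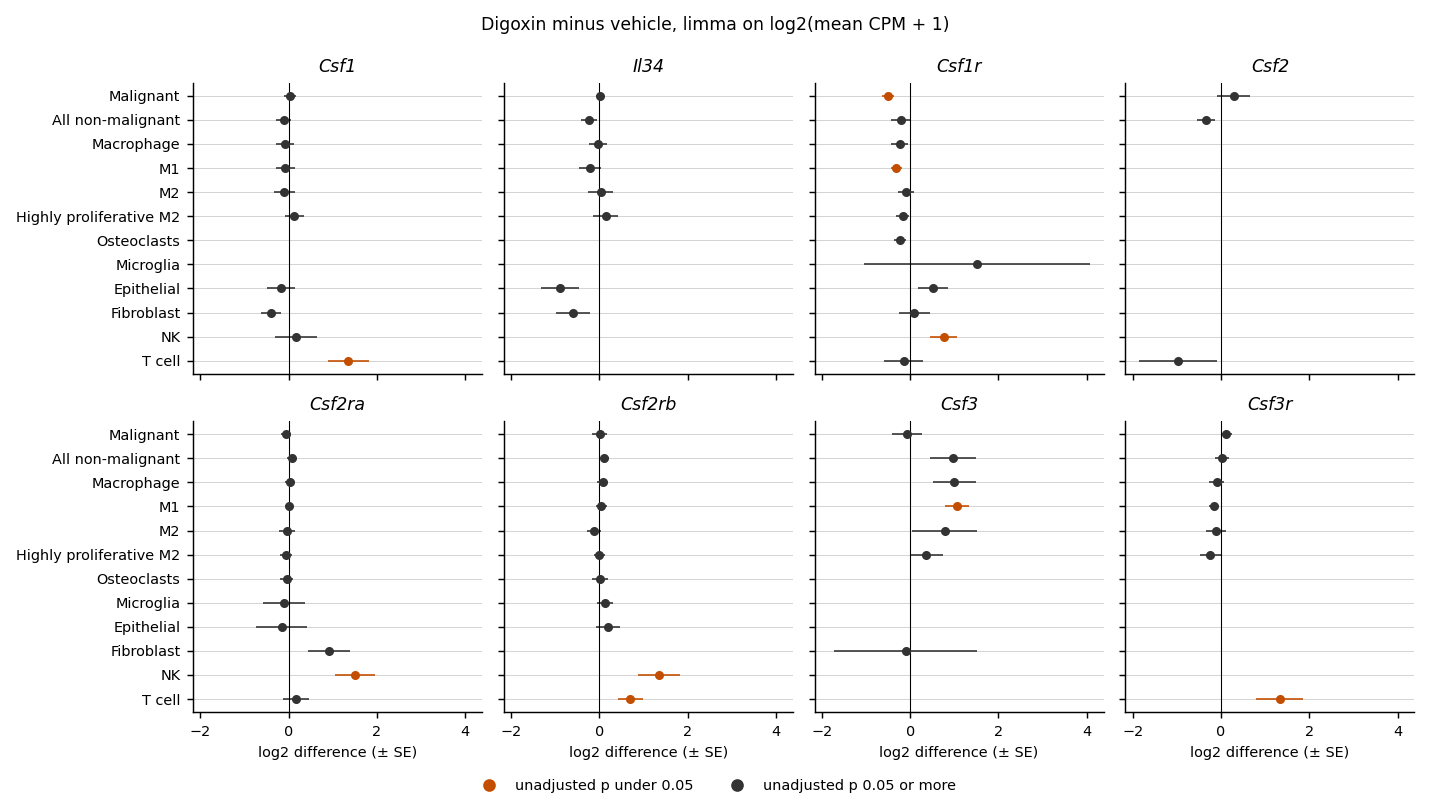
Log2 difference, digoxin minus vehicle, with its SE, for each member and population, blank where the member did not pass the count filter. Points for the 9 tests with an unadjusted p under 0.05 are orange, among them malignant Csf1r at -0.51 and T cell Csf1 at 1.35, and none passed adjustment.

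The wider pathway was read from 4 lists with 49 genes in all. They covered receptor partners and shedding proteases, kinases and adaptors downstream of CSF1R, the JAK-STAT pathway used by the GM-CSF and G-CSF receptors, and myeloid transcription factors. None of the listed genes passed an adjusted p of 0.05 in any population, by limma. In macrophages 6 of 10 partners, 15 of 15 CSF1R signalling genes, 14 of 14 JAK-STAT genes and 10 of 10 transcription factors were tested, with median log2 differences of 0.05, 0.02, -0.01 and -0.08 beside -0.01 for all 13734 genes. In malignant cells the medians were -0.05, -0.02, 0.02 and -0.17 beside -0.01 for all 17138 genes. The transcription factors had medians of 0.37 in NK cells (6 of 6 tested genes higher), 0.52 in the Epithelial type (5 of 8) and 0.76 in the type named Microglia (5 of 7), beside 0.02, 0.003 and 0.01 for all genes. Their medians were 0.22 in osteoclasts (6 of 8), 0.01 in T cells (4 of 8) and -0.18 in fibroblasts (3 of 8). In the macrophage sub-clusters they were -0.09 in M1, -0.09 in M2 and -0.02 in Highly proliferative M2. The macrophage marker sums given above were lower with digoxin in malignant cells, higher in NK cells, the Epithelial type and fibroblasts, and overlapped in T cells. In the type named Microglia the sums also overlapped, at 1142 and 481 CPM with vehicle and 995 and 1524 CPM with digoxin. Their part was not tested.

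Abundant genes of the lists are given for macrophages and malignant cells. The level of a listed gene does not show that the pathway was in use there. Macrophages held Tyrobp, an adaptor that signals with TREM2, at 1994 CPM, the Src-family kinase gene Lyn at 293 CPM, the survival gene Mcl1 at 992 CPM and the transcription factor gene Cebpb at 2052 CPM. Pim1, a STAT5 target, was at 436 CPM. Malignant cells held Cebpb at 498 CPM, Mcl1 at 251 CPM, Myc at 188 CPM and the kinase gene Akt1 at 127 CPM. Adam17 and Adam10, proteases able to shed membrane-bound CSF1, CSF1R and other proteins, were at 39.4 and 39.1 CPM in malignant cells, and Adam17 was at 112 CPM in macrophages.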

How the data were processed

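Single-cell RNA of 2 vehicle and 2 digoxin tumors was analysed from tables of malignant and non-malignant cells. The authors deposited natural log values, ln(1 + UMIs of the gene per 10000 UMIs of its cell), in files whose names call them counts. Scaling them back by the deposited UMI total of each cell returned whole UMIs for 100% of the non-zero values (tolerance 0.01). The submitters' processing notes name Cell Ranger 3.0.2, Seurat 3.0.2 and mm10. The rule that separated malignant cells is not given in the sources used here. Every cell had at least 1801 genes and every gene at least 11 cells. One vehicle library has the number 3 in its cell names and is vehicle replicate 2 in the deposited cell table. Cell types and sub-clusters are those of the authors' deposited annotation.

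Mean CPM per cell was computed for each mouse and population (Python 3.11.15). Types with 20 or more cells in every mouse were tested with limma 3.58.1 (R 4.3.3, variance trend) on log2(mean CPM + 1), on genes kept by filterByExpr of edgeR 4.0.16 and adjusted by Benjamini-Hochberg at 0.05. Because 1 was added before taking logs, differences of scarce genes come out too small. The types too small for a test (Neutrophil, Dendritic, B cell and Unknown) were described only. Alternatives were edgeR and DESeq2 1.42.0 on summed UMIs, other pseudocounts (0.1 and 10), no filter, CPM of summed UMIs, a replicate block, cells under 20% mitochondrial UMIs, leaving out each mouse, cells marked by Scrublet (scanpy 1.11.5) or malignant cells with macrophage markers, and thinning to 3000 UMIs. The fits were tested on simulated data. The 8 members and the pathway and marker lists were chosen with earlier results of these data known. The rule was to name all 8 members in every population with a UMI of them, and low levels are shown in the plot of levels by type alone. Of the 49 pathway genes, the abundant ones named come from the 2 highest of each list, and for alike genes the best correlated is given. Csf2rb2 and Il3ra are also given outside that rule, for their relation to Csf2rb. The table columns that belong to no sample numbered 0. One further allele of the tumors and 1 gene of the pathway lists are not reported by name here.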

Additional observations from a re-analysis of the deposited data

Results flagged for a closer look

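Some members moved in opposite directions in different populations, with both digoxin mice above both vehicle mice in one type and below them in the other. Csf1 was higher with digoxin in T cells and lower in the Epithelial type and in fibroblasts, and the log2 differences in T cells exceeded the others by 1.52 and 1.76. The T cell difference of 1.35 behind both gaps was 0.62 without vehicle replicate 2, 0.51 by edgeR and 0.57 by CPM of summed UMIs. The mix of T cell sub-clusters differed between the mice, and its part was not tested. The Epithelial Csf1 difference of -0.17 was smaller than its SE of 0.314. Csf1r was higher with digoxin in the Epithelial type and in NK cells and lower in malignant cells and osteoclasts. The Epithelial difference exceeded the malignant one by 1.02 and the osteoclast one by 0.74, and the NK difference exceeded them by 1.26 and 0.98. Without malignant cells that had UMIs of at least 3 macrophage markers, the malignant Csf1r difference was 0.06. Those cells held most of the malignant Csf1r UMIs, so the sign of what remained is not read. The 6 macrophage markers summed to 361 and 736 CPM with vehicle and 900 and 1060 CPM with digoxin in the Epithelial type, 525 and 542 against 601 and 953 CPM in NK cells, 380.1 and 115 against 612 and 558 CPM in fibroblasts, and 531 and 547 against 406 and 423 CPM in malignant cells. Their part in these directions was not tested. Csf2ra was higher in fibroblasts and NK cells and lower in osteoclasts, with gaps of 0.96 and 1.55. The osteoclast difference of -0.04 was smaller than its SE of 0.147, so these gaps come almost wholly from the other type. None of these gaps was tested, and 29.3% to 37.4% of all genes had groups without overlap in the populations compared.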

How the results depend on the processing

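Of 165 recounts of called members under the alternatives, 158 gave the same number. DESeq2 on summed UMIs called 1 member in malignant cells (Csf1r) and 0.257% of all genes. Leaving out each mouse gave 0 to 1 calls in NK cells (Csf2ra), 0 to 2 in T cells (Csf1 and Csf1r, or Csf2rb without vehicle replicate 2), 0 to 1 in M1 (Csf3) and 0 to 1 in the test of the compartment difference (Csf3), each of the highest counts without vehicle replicate 1. All genes called there were 1.48%, 2.17%, 1.77% and 1.47%. The fit with a replicate block called 1 member in T cells (Csf1, limma adjusted p = 0.0343), with 0.638% of all genes, and changed no other call. Same-numbered mice correlated at -0.36 to 0.06 in their deviations and share only a number.

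The percent of UMIs in malignant cells without cells marked as doublets was 4.19 for Csf1r, 4.56 for Csf2ra, 3.64 for Csf2rb and 9.84 for Csf3r. Without malignant cells with macrophage markers it was 93.8 for Csf1, 95.6 for Il34, 73.9 for Csf2, 47.4 for Csf3, 1.09 for Csf1r, 1.5 for Csf2ra, 1.11 for Csf2rb and 3.42 for Csf3r. Both alternatives remove malignant cells by construction. The log2 difference of malignant Csf1r went from -0.51 to 0.057 without cells with macrophage markers, which held most of its malignant UMIs. Small differences also changed sign. The cause was not tested. Macrophage Csf2ra was -0.015 by edgeR, -0.0095 by DESeq2 and -0.0022 by CPM of summed UMIs. Leaving out each mouse gave -0.035 to 0.099 for macrophage Csf2ra, -0.075 to 0.22 for macrophage Csf2rb, -0.52 to 0.042 for macrophage Csf1r, -0.11 to 0.19 for malignant Csf1 and -0.037 to 0.074 for malignant Il34.

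Few UMIs limit Csf2 and Csf3, and few cells limit the Neutrophil, Dendritic and B cell types. Levels moved by more than the spread between mice in 108 of 504 recounts, most of them with CPM of summed UMIs or without doublets. Shares of cells with a UMI fell with thinning to 3000 UMIs, since fewer UMIs were drawn.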

Other observations

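Within the T cell type the receptor levels differed between the deposited sub-clusters. Treg, the regulatory T cells, held 87.5, 136, 134 and 69.7 CPM of Csf1r, 18.2% of the macrophage level on average, and the 6 macrophage markers in the same cells stood at 16.3% of theirs. Without cells with UMIs of at least 3 of these markers, the Treg mean of Csf1r was 6.58 CPM. Treg Csf2ra and Csf2rb stood higher, at 42.3% and 70.5% of the macrophage level. The sub-cluster named Unknown T cell, 35 cells in all, held 292, 282, 289 and 268.5 CPM of Csf2rb and 188, 146, 134 and 136 CPM of Csf2ra. Its Csf1r level rested on 1 UMI, and its macrophage markers were at 2.31% of the macrophage level. Th cells held 29.6, 0, 61.9 and 75.3 CPM of Csf1, the CSF1R ligand, from 56 UMIs in 32 of 167 cells. These values were not tested, since several sub-clusters had fewer than 20 cells in a mouse.

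Il3ra, the alpha chain that pairs with the shared beta chain for interleukin-3, was present outside the myeloid types. It averaged 28.6 CPM in malignant cells, 82.3 CPM in fibroblasts and 46.0 CPM in the Epithelial type.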
